A study of Mus musculus with 16 samples.

Results

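The tumor necrosis factor (TNF) ligand and receptor superfamily was read here from the mouse fallopian tube, the duct that carries the oocyte and the early embryo towards the uterus. The members were the probes whose deposited gene symbol is Tnfrsf (receptor) or Tnfsf (ligand) followed by a family number. Tnfrsf12a is the leading member and was picked as such with earlier results of these data known. That rule took 49 probes for 31 gene symbols out of 25697 probes for 18138 symbols: 36 probes for 21 receptors and 13 probes for 10 ligands. The rule used symbols and no measured value, but the family was chosen with earlier results of these data known. Members of the family that carry other symbols, such as Tnf, Fas and Cd40, were kept apart in a list of related genes.

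RNA came from 16 pooled samples of tubes of untreated immature female C57BL/6N mice of 3.5 to 5 weeks, 6 tubes to a sample, opened and held in medium. Controls received 0.01% ethanol and the other tubes 100 nmol/L progesterone in the same ethanol, for 20 min or for 2 h, with 4 samples in each of the 4 groups. A control and a progesterone sample with the same code form a pair: 27n, 26n, 12n and 22ob at 20 min, and 6d, 19n, 30o and 15o at 2 h. The study asked which genes of the tube respond to progesterone within these times. No pair spans both times, so time in medium cannot be told apart from whatever else differed between the tubes of the 20 min and the 2 h pairs, and the tubes before culture were not analysed here.

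Proteins of this superfamily are mostly trimeric ligands on the cell surface, or shed from it, and the receptors they bind. The receptors have no enzyme activity of their own. They recruit adaptor proteins, mainly of the TRAF family, which lead to NF-kB and to the kinases JNK and p38, and those with a death domain can instead recruit FADD and caspase-8. Tnfrsf12a encodes Fn14, the receptor of TWEAK (Tnfsf12), a small receptor that is low in healthy tissue and induced by growth factors and injury. Tnfrsf1a encodes the main receptor of TNF, which most cell types carry. Tnfrsf19 encodes TROY, a receptor known from epithelial progenitors and hair follicles. Tnfrsf22 encodes a mouse decoy receptor that binds the ligand TRAIL (Tnfsf10) without passing on a death signal.

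The stretches of 250 bases upstream of the start are shown for the receptors that were called in both time comparisons below and have an entry in the reference table. They come from RefSeq on GRCm38.p6, and 23 of the 31 family symbols matched that table. Tnfrsf22 is named only. Capitals mark matches to 4 motifs searched on both strands: the GC box GGGCGG, the AP-1 motif TGANTCA, the NF-kB consensus and the CArG box. Where GC boxes adjoin or overlap, their capitals run together.
Tnfrsf12a, chr17:23677450-23677699, minus strand: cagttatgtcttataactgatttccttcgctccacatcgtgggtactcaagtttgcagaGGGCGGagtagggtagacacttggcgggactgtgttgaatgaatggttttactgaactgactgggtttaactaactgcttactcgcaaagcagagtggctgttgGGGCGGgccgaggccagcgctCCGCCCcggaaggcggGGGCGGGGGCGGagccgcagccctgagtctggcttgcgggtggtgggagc
Tnfrsf1a, chr6:125349473-125349722, plus strand: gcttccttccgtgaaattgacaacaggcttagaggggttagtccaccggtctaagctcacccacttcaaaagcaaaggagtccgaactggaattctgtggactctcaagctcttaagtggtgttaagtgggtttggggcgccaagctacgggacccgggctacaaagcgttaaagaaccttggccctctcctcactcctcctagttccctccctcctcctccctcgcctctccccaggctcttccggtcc
Tnfrsf19, the start farther upstream, chr14:61046856-61047105, minus strand: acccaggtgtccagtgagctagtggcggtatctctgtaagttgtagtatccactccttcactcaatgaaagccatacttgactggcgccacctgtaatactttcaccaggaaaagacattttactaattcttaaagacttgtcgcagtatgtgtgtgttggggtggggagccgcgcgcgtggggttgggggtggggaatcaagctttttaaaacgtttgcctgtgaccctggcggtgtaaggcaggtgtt
Tnfrsf19, the other start, chr14:61037988-61038237, minus strand: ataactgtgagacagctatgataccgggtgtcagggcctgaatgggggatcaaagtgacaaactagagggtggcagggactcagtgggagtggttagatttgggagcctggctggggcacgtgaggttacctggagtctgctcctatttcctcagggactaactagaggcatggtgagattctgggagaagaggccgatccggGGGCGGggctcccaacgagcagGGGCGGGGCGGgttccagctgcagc

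The window of Tnfrsf12a held 5 GC boxes and none of the other motifs. The downstream start of Tnfrsf19 held 3 GC boxes, and the windows of Tnfrsf1a and of the other Tnfrsf19 start held none of the 4 motifs. Among 32851 windows of the same length, 32.7% held a GC box, 6.75% the AP-1 motif, 7.25% the NF-kB consensus and 1.47% a CArG box. Of the 27 family windows, 37.0% held a GC box, 14.8% the AP-1 motif, 11.1% the NF-kB consensus and 3.70% a CArG box, which is 10, 4, 3 and 1 windows. These matches describe the letters of the windows and no binding.

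The first question was which members gave signal in the tube at all. A probe counted as detected on an array where its detection p, the share of negative control beads brighter than the probe, was under 0.05. Of the 49 family probes, 14 (28.6%, for 9 genes) were detected on all 16 arrays, against 42.4% of all probes, and 20 (40.8%) were detected on none, against 29.9% of all probes. Between 15 and 22 of the 49 family probes were detected on an array, beside 13222 to 14267 of all 25697 probes. The tests used probes with a detection p under 0.5 on at least 13 of the 16 arrays, which kept 27 family probes (55.1%, for 19 genes) beside 16848 (65.6%) of all probes.

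**Figure D1:**
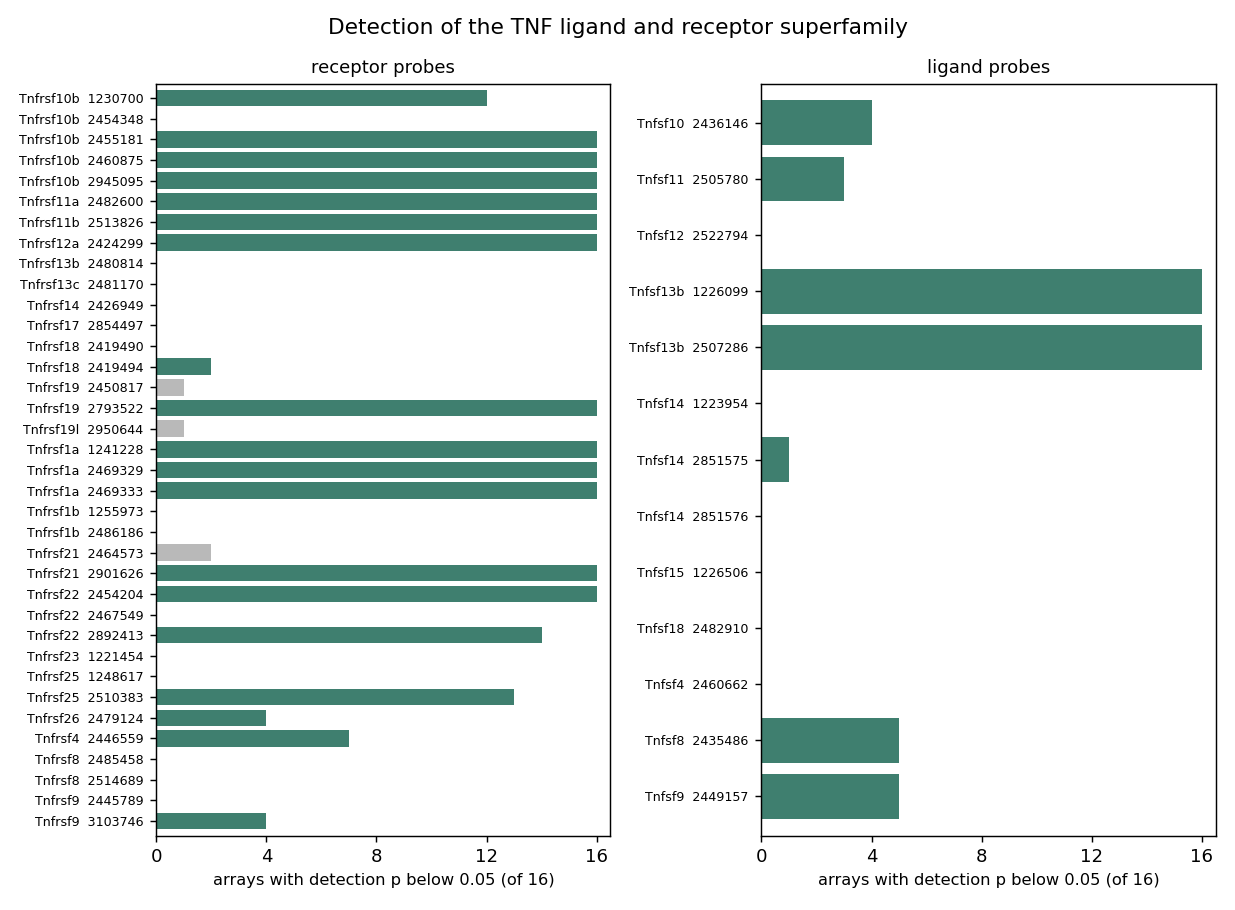
Number of the 16 arrays (x axis) on which each of the 49 family probes had a detection p under 0.05, receptors on the left and ligands on the right. Green bars are probes kept for the tests and grey bars are probes left out; rows without a bar are at 0. On all 16 arrays there were 12 receptor probes and 2 ligand probes.

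The receptors on all arrays were Tnfrsf1a with all 3 of its probes, Tnfrsf10b (the mouse TRAIL death receptor) with 3 of its 5 probes, Tnfrsf11a (RANK, the receptor that drives osteoclast formation), Tnfrsf11b (osteoprotegerin, the secreted decoy of RANK ligand), Tnfrsf12a, Tnfrsf19, Tnfrsf21 (death receptor DR6) and Tnfrsf22. Tnfrsf25 (DR3) was detected on 13 arrays and Tnfrsf4 (OX40) on 7. Tnfrsf13b, Tnfrsf13c and Tnfrsf17, the receptors for BAFF and APRIL, were detected on 0 arrays, as were Tnfrsf8 (CD30) and Tnfrsf14 (HVEM). The TNF receptor of leukocytes and endothelium, Tnfrsf1b, was detected on 0 arrays with both probes. Tnfrsf23 also had 0, Tnfrsf18 at most 2 with a probe, and Tnfrsf9 4.

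Among the ligands, Tnfsf13b (BAFF, a survival factor of B cells) was the gene detected on all arrays, with both of its probes. Tnfsf8 and Tnfsf9 were detected on 5 arrays each, Tnfsf10 on 4, Tnfsf11 (RANK ligand) on 3 and Tnfsf14 on 1. Tnfsf4, Tnfsf12, Tnfsf15 and Tnfsf18 were detected on 0. So the receptor Tnfrsf12a was detected on every array and the probe of its ligand Tnfsf12 on none. On the log2 scale of the normalised signal, the probe of Tnfsf12 lay between 6.67 and 6.92 over the 16 arrays. These counts set each probe against the negative controls and do not compare the ligand with the receptor.

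Probes of a gene did not always behave alike. Tnfrsf19 had a probe on 16 arrays (ILMN_2793522) and a probe on 1 (ILMN_2450817), and Tnfrsf21 had ILMN_2901626 on 16 and ILMN_2464573 on 2. The 3 probes of Tnfrsf22 were detected on 16, 14 and 0 arrays. The symbol Tnfrsf19l, an older name of Relt, had its probe detected on 1 array, while the probe filed under Relt was detected on 16. Each probe is therefore reported on its own. The deposited table gives no definition for 4 of the 49 family probes, among them ILMN_2454204 of Tnfrsf22.

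All family values below are log2 of the signal after quantile normalisation over the 16 arrays. Tnfrsf12a (ILMN_2424299, chromosome 17) showed the largest change of the family. In control tubes at 20 min it measured 8.0 in 27n, 8.12 in 26n, 7.95 in 12n and 7.94 in 22ob. In control tubes at 2 h it measured 12.45 in 6d, 12.12 in 19n, 12.002 in 30o and 11.11 in 15o. Every 2 h control lay far above every 20 min control, and 15o was the lowest of the 2 h controls. The group means were 8.0 ± 0.08 and 11.92 ± 0.57 (SD, n = 4 each).

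In progesterone tubes the probe of Tnfrsf12a measured 7.66 in 27n, 8.10 in 26n, 7.70 in 12n and 7.70 in 22ob at 20 min. At 2 h it measured 12.31 in 6d, 11.62 in 19n, 12.07 in 30o and 11.82 in 15o. The groups again did not overlap, with means of 7.79 ± 0.21 and 11.96 ± 0.30 (SD, n = 4 each). Tnfrsf12a was picked with earlier results of these data known, so groups that lie apart in either arm are no separate result. The share of all probes without overlap was not counted.

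**Figure D2:**
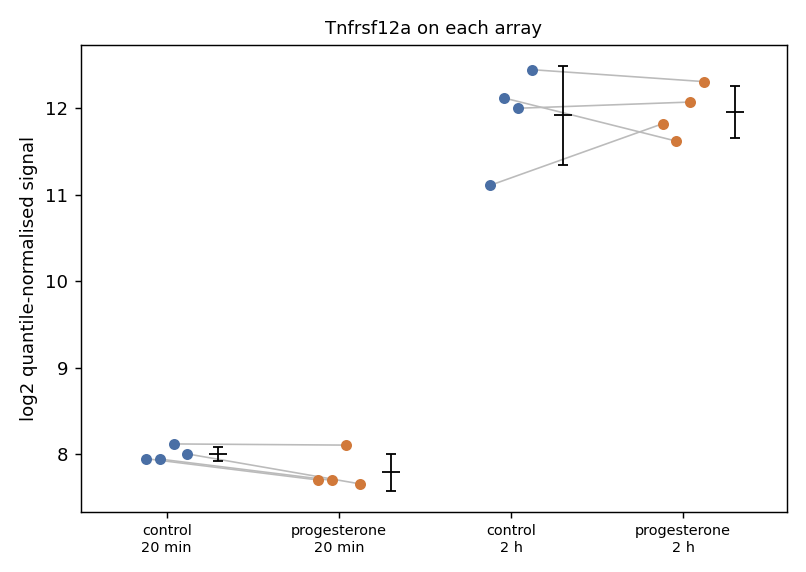
Tnfrsf12a log2 quantile-normalised signal (y axis) on each array by group (x axis). Points are arrays, blue for control and orange for progesterone, grey lines join the samples of a pair, and black bars give the mean ± SD of 4. All 8 arrays of 2 h lie between 11.11 and 12.45, and all 8 of 20 min between 7.66 and 8.12.

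Between 20 min and 2 h, Tnfrsf12a rose by 3.92 on the log2 scale in controls (SE 0.23, 95% interval 3.39 to 4.44), which is 15.1-fold (limma, Benjamini-Hochberg adjusted p = 9.39e-06). In progesterone tubes it rose by 4.17 (SE 0.15, 95% interval 3.83 to 4.51), which is 18.0-fold (limma, adjusted p = 4.46e-07). Ordered by size of rise among 16848 probes, it stood at rank 2 in controls and at rank 1 in progesterone tubes. As the gene was picked with earlier results of these data known, its rank is no separate support. The 2 contrasts use separate arrays, but the arrays are partners in the same pairs, so they are not independent of each other. Without normalisation the rises were 3.71 and 3.88.

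Tube pieces are a mixture, and in bulk RNA a higher share of a cell type cannot be told apart from more RNA per cell. Markers of the tube itself were in place. The 5 secretory epithelium markers measured, such as Ovgp1 and Pax8, and the 6 ciliated markers were detected on all arrays. Of 10 ovary markers, 0 were detected on all arrays and 4 on none. Levels of 8 smooth muscle markers, summed on the linear scale, ranged from 38836 to 55592 in 20 min controls and from 12083 to 54573 in 2 h controls. The lowest value belonged to the 2 h control of 15o, which also had the lowest Tnfrsf12a of the 2 h arrays. The smooth muscle markers had a median change of -0.52 in controls, with 0 of 8 called, and of -0.64 in progesterone tubes, with 1 of 8 called, Lmod1. The 6 fibroblast markers had medians of -0.72 and -0.71 with 1 and 2 called lower. Over all probes tested 5.33% were called lower in controls and 7.79% in progesterone tubes. Each array's smooth muscle score was also entered in the fit as a covariate, an alternative chosen after seeing the data. The rise of Tnfrsf12a was then 4.19 in controls and 4.37 in progesterone tubes. As the smooth muscle markers had negative median changes with time themselves, this fit does not test the share of muscle.

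The same contrasts were then read for the other 26 family probes. In controls, 7 of the 27 family probes (25.9%) passed an adjusted p of 0.05, 5 of them higher and 2 lower at 2 h. Over all 16848 probes 11.3% passed, 6.01% higher and 5.33% lower. In progesterone tubes 6 of 27 (22.2%) passed, 5 higher and 1 lower, against 15% of all probes, 7.19% higher and 7.79% lower. The median change of the family probes was 0.04 in controls and 0.12 in progesterone tubes, and that of all probes -0.01 in each. Probes of a gene share their target: the 5 probes that rose belong to 3 genes, Tnfrsf12a, Tnfrsf1a and Tnfrsf22, and all are receptors. The split of all calls depends on the scaling. Of the calls in controls 53.0% were higher at 2 h after quantile normalisation, 26.2% after median scaling and 15.8% with no normalisation, and in progesterone tubes 48%, 15.3% and 5.80%. With no normalisation the median of all probes shifted by -0.17 in controls and -0.23 in progesterone tubes. With no normalisation 2 of the 27 family probes (7.41%) were called in controls, Tnfrsf12a higher and Tnfrsf19 lower, against 10.8% of all probes. In progesterone tubes 5 (18.5%) were called, against 39.5% of all probes: Tnfrsf12a and 1 probe of Tnfrsf1a higher, Tnfrsf19 lower, and Tnfrsf11a and Tnfrsf11b, not called after quantile normalisation, lower.

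**Figure D3:**
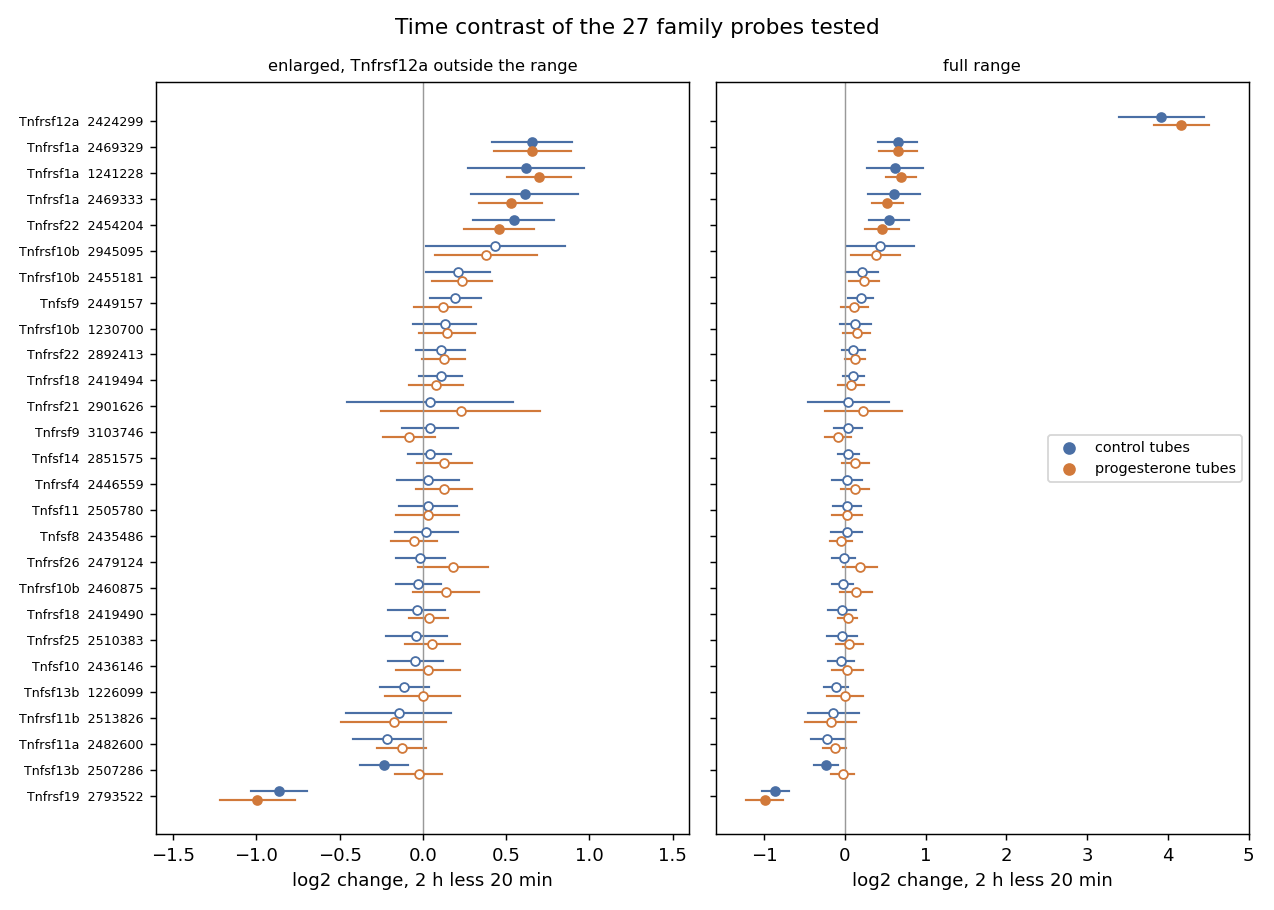
Log2 change from 20 min to 2 h (x axis) of the 27 family probes tested, in control tubes (blue) and progesterone tubes (orange), with 95% intervals; the left panel is enlarged and leaves out Tnfrsf12a. Filled points passed an adjusted p of 0.05. Apart from Tnfrsf12a and Tnfrsf19, the means lie between -0.23 and 0.70.

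All 3 probes of Tnfrsf1a rose in both arms. Probes described here and below were picked because they were called, so arrays of 20 min and 2 h that lie apart are no separate result. The share of all probes without overlap was not counted. ILMN_2469329 measured 7.49 in 27n, 7.79 in 26n, 7.58 in 12n and 7.64 in 22ob in controls of 20 min, and 8.58 in 6d, 8.18 in 19n, 8.15 in 30o and 8.20 in 15o in controls of 2 h. Its progesterone values were 7.74, 7.66, 7.52 and 7.71 at 20 min and 8.57, 8.09, 8.38 and 8.21 at 2 h, in the same order of pairs. Every 2 h value was above every 20 min value. The changes were 0.65 (SE 0.11, limma adjusted p = 0.00439) in controls and 0.66 (SE 0.10, limma adjusted p = 0.00254) in progesterone tubes.

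The second probe of Tnfrsf1a, ILMN_1241228, measured 7.72, 7.76, 7.46 and 7.71 in the 20 min controls and 8.72, 8.36, 8.11 and 7.93 in the 2 h controls. In progesterone tubes it measured 7.63, 7.60, 7.60 and 7.68 at 20 min and 8.48, 8.13, 8.23 and 8.45 at 2 h. The spread among 2 h controls was the widest of these groups, with 6d highest and 15o lowest. It changed by 0.62 (SE 0.15, limma adjusted p = 0.0317) in controls and by 0.70 (SE 0.08, limma adjusted p = 0.000587) in progesterone tubes. The third probe, ILMN_2469333, ranged from 7.44 to 7.85 in 20 min controls and from 8.0 to 8.60 in 2 h controls, a change of 0.61 (limma adjusted p = 0.0246). In progesterone tubes its range went from 7.47 to 7.72 at 20 min to 8.01 to 8.32 at 2 h, a change of 0.53 (limma adjusted p = 0.0029). With no normalisation the 3 changes in controls were 0.33, 0.37 and 0.34, which is 0.50, 0.54 and 0.51 above the shift of all probes, and none of the 3 passed; in progesterone tubes 1 of the 3 did.

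The known ligands of this receptor gave little signal. The probe of Tnf was detected on 5 of 16 arrays and lay between 6.76 and 7.10 on the log2 scale over the arrays. Its change was 0.09 in controls and 0.07 in progesterone tubes, neither past the threshold. The probe of Lta, lymphotoxin alpha, was detected on 0 arrays.

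Tnfrsf22 rose with 1 of its 3 probes. ILMN_2454204 measured 7.15 in 27n, 7.45 in 26n, 7.10 in 12n and 7.50 in 22ob in controls of 20 min, and 7.93 in 6d, 7.95 in 19n, 7.67 in 30o and 7.83 in 15o in controls of 2 h. In progesterone tubes it measured 7.46, 7.26, 7.24 and 7.50 at 20 min and 8.05, 7.74, 7.74 and 7.76 at 2 h. The times did not overlap in either arm. The changes were 0.55 (SE 0.11, limma adjusted p = 0.0117) in controls and 0.45 (SE 0.09, limma adjusted p = 0.0104) in progesterone tubes. With no normalisation they were 0.31 and 0.16, which is 0.48 and 0.39 above the shift of all probes, and neither passed. The probe ILMN_2892413, near the detection limit with means of 7.07 and 7.18 in controls, changed by 0.11 and 0.13 and did not pass. Tnfrsf22 lies beside the related genes Tnfrsf23 and Tnfrsf26, and whether ILMN_2454204 also binds their transcripts was not tested. Its ligand Tnfsf10 was detected on 4 arrays, 1 in each group, and ranged from 6.80 to 7.22. Tnfsf10 changed by -0.05 in controls and 0.03 in progesterone tubes, with intervals of -0.21 to 0.12 and -0.16 to 0.22.

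Tnfrsf19 moved the other way. Its probe ILMN_2793522 (chromosome 14) measured 9.16 in 27n, 9.06 in 26n, 8.91 in 12n and 9.02 in 22ob in controls of 20 min, and 8.30 in 6d, 8.09 in 19n, 8.13 in 30o and 8.18 in 15o in controls of 2 h. In progesterone tubes it measured 9.30, 9.37, 9.13 and 8.96 at 20 min and 8.06, 8.20, 8.16 and 8.37 at 2 h. All 8 arrays of 2 h lay below all 8 of 20 min. It fell by 0.86 on the log2 scale in controls (SE 0.07), 1.82-fold (limma adjusted p = 0.000101), and by 0.99 in progesterone tubes (SE 0.10), 1.99-fold (limma adjusted p = 0.000196). With the covariate for smooth muscle the changes were -0.83 and -1.0, and with no normalisation -1.16 and -1.40, which is -0.99 and -1.17 relative to the shift of all probes.

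**Figure D4:**
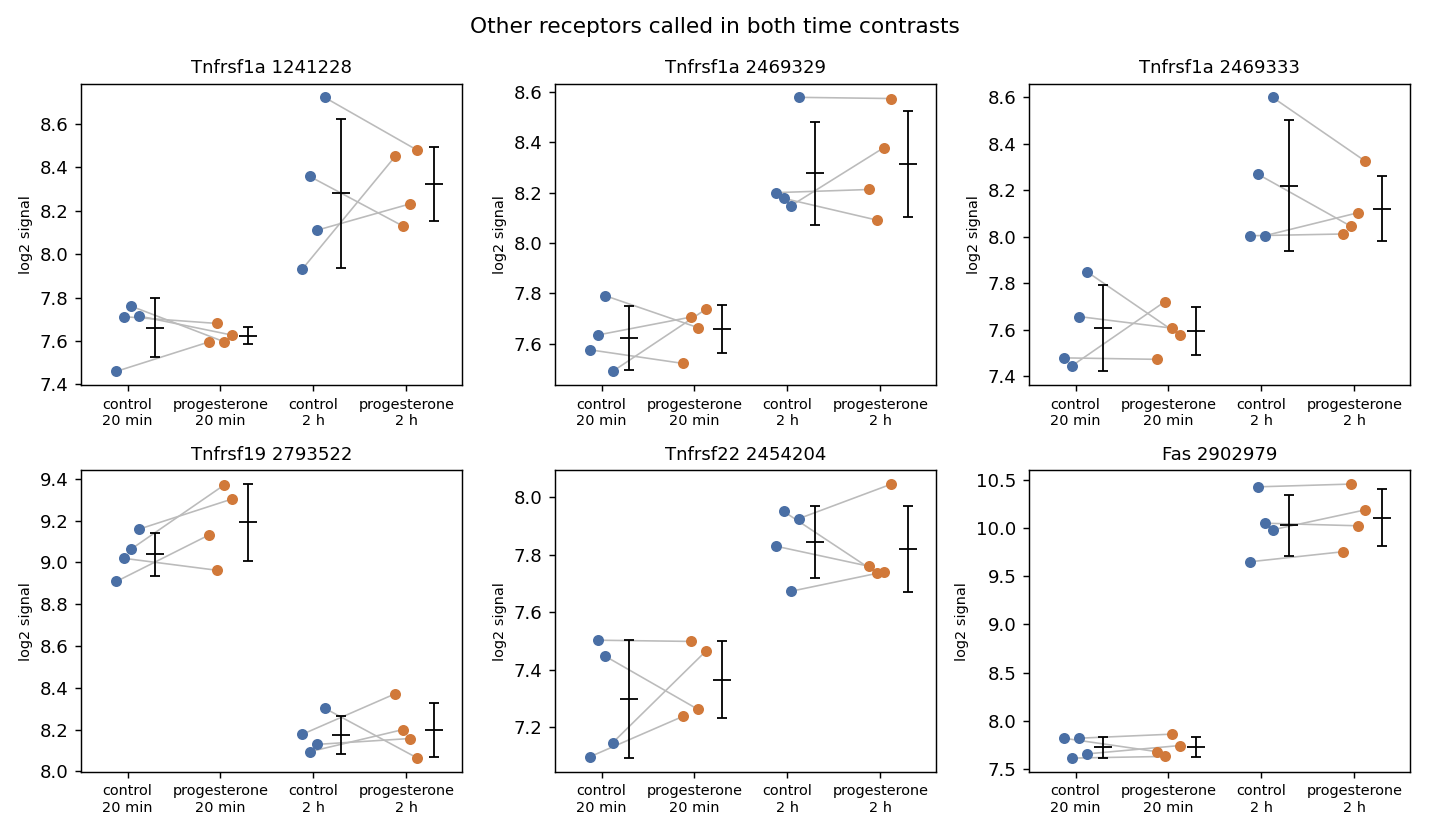
Log2 quantile-normalised signal (y axes, each with its own range) on each array by group (x axes) for the 3 probes of Tnfrsf1a, the called probes of Tnfrsf19 and Tnfrsf22, and Fas. Points are arrays, blue for control and orange for progesterone, grey lines join pairs, and black bars give the mean ± SD of 4. The panels were picked because their probes were called in both time contrasts. In each panel the 20 min and 2 h arrays do not overlap, and the share of all probes without overlap was not counted. Tnfrsf19 is the panel with the lower 2 h values.

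The ligand Tnfsf13b was called in controls only, near the threshold, and the difference between the arms was not called either. ILMN_2507286 measured 7.46, 7.25, 7.30 and 7.30 in 20 min controls and 7.08, 7.06, 7.16 and 7.10 in 2 h controls, a fall of 0.23 on the log2 scale (limma adjusted p = 0.0485). In progesterone tubes it measured 7.28, 7.30, 7.34 and 7.46 at 20 min and 7.29, 7.28, 7.40 and 7.31 at 2 h, a change of -0.02 (interval -0.17 to 0.12). The other probe, ILMN_1226099, changed by -0.11 and 0.00 and was not called in either arm. The call of ILMN_2507286 was lost in 11 of 16 alternatives, with adjusted p-values from 0.0161 to 0.12.

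The remaining family probes did not pass in either time contrast. The lowest adjusted p in controls was that of the ligand Tnfsf9 at 0.20 (interval 0.04 to 0.35, limma adjusted p = 0.107), and in progesterone tubes that of Tnfrsf10b ILMN_2455181 at 0.24 (interval 0.05 to 0.42, limma adjusted p = 0.0828). Tnfrsf10b ILMN_2945095 had 0.44 in controls (limma adjusted p = 0.175) and 0.38 in progesterone tubes (limma adjusted p = 0.095). In controls its other kept probes had changes of -0.03 to 0.21. The decoy Tnfrsf11b changed by -0.14 and -0.18, its partner receptor Tnfrsf11a by -0.22 and -0.13, and their ligand Tnfsf11 by 0.03 in each arm. Among the probes that did not pass, Tnfrsf21 had the widest interval, from -0.45 to 0.54 in controls around a change of 0.04. The others, Tnfrsf4, Tnfrsf9, Tnfrsf18, Tnfrsf25, Tnfrsf26, Tnfsf8, Tnfsf9 and Tnfsf14, had changes between -0.04 and 0.20 in controls and between -0.08 and 0.18 in progesterone tubes.

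Progesterone was compared with control within pairs, with an adjusted p of 0.20 as the threshold, after the study's q-value of 20%. At 20 min 0 of the 27 family probes passed, as did 0 of all probes (0%). At 2 h 0 of 27 passed, against 1 of 16848 probes (0.00594%). The change of the progesterone effect from 20 min to 2 h passed for 0 family probes and for 1 of all probes (0.00594%). At an unadjusted p under 0.05 in limma's fits there were 1, 2 and 1 family probes (3.70%, 7.41% and 3.70% of 27) against 5.03%, 2.59% and 4.15% of all probes, and paired SAM called 0 at each time. Family changes ran from -0.21 to 0.15 at 20 min and from -0.12 to 0.22 at 2 h. A probe higher or lower in all 4 pairs was found for 1 family probe at 20 min, Tnfrsf12a, and for 2 at 2 h, Tnfsf13b and Tnfrsf10b, while 12.9% and 10.4% of all probes had the same sign in all pairs.

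**Figure D5:**
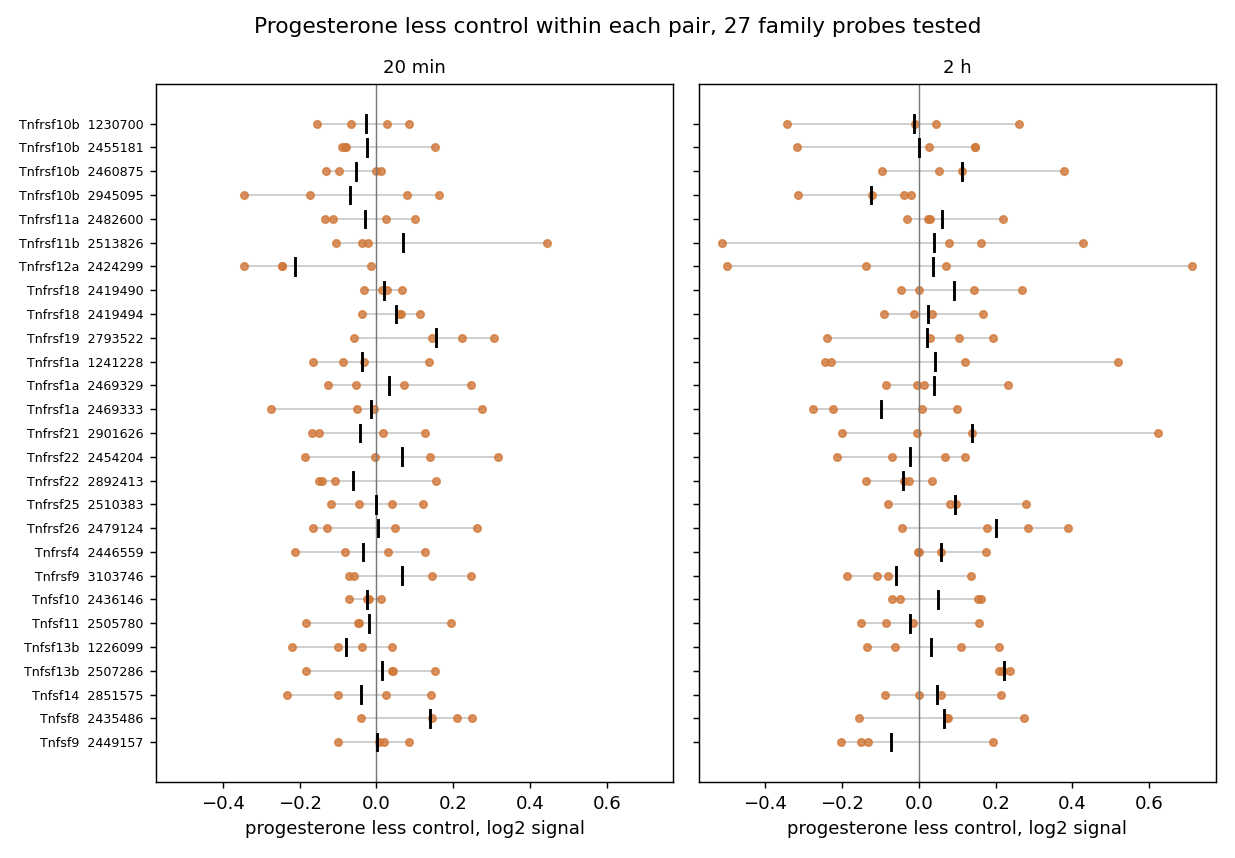
Progesterone less control log2 signal within each pair (x axis, points) for the 27 family probes tested, at 20 min (left) and 2 h (right). Black ticks are means of 4 pairs and grey lines the range. The Tnfrsf12a points spread from -0.50 to 0.71 at 2 h, while those of the Tnfsf13b probe ILMN_2507286 lie between 0.21 and 0.24.

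For Tnfrsf12a the pair differences at 20 min were -0.35 in 27n, -0.01 in 26n, -0.25 in 12n and -0.25 in 22ob. All 4 progesterone samples were lower, 26n by almost nothing. The mean difference was -0.21 (interval -0.37 to -0.06, limma adjusted p = 0.948), which did not pass. At 2 h the differences were -0.14 in 6d, -0.50 in 19n, 0.07 in 30o and 0.71 in 15o, with signs split evenly. Their mean was 0.04 (interval -0.34 to 0.42, limma adjusted p = 0.9997), and without 15o it was -0.19. The effect at 2 h less that at 20 min was 0.25 (interval -0.19 to 0.69, limma adjusted p = 0.999). A progesterone effect on this receptor as large as its change with time lies outside these intervals.

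For 1 of the 2 probes of the ligand Tnfsf13b the pair differences at 2 h lay close together, though they did not pass. With ILMN_2507286 the differences at 2 h were 0.21 in 6d, 0.22 in 19n, 0.24 in 30o and 0.22 in 15o, a mean of 0.22 (interval 0.07 to 0.37, limma adjusted p = 0.9997). Its 20 min difference was 0.01. The other probe of the gene, ILMN_1226099, had a 2 h mean of 0.03 (interval -0.15 to 0.21), with 2 pairs higher and 2 lower. Tnfrsf26 (ILMN_2479124), detected on 4 arrays of which 3 were progesterone arrays of 2 h, had a 2 h mean of 0.20 with 3 of 4 pairs higher (limma adjusted p = 0.9997). Tnfrsf19 had 0.15 at 20 min with 3 of 4 pairs higher (interval -0.0042 to 0.31, limma adjusted p = 0.948).

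Genes next to the family were counted from lists chosen with earlier results of these data known. In the list of 16 related genes under other symbols, such as Tnf, Fas, Cd40 and Ltbr, 10 were tested, 1 rose in controls and 1 rose and 1 fell in progesterone tubes, which is 10% and 20% of the list beside 11.3% and 15% of all probes. The gene that rose was Fas, the death receptor of Fas ligand. Fas measured 7.65 in 27n, 7.82 in 26n, 7.82 in 12n and 7.61 in 22ob in controls of 20 min, and 9.98 in 6d, 10.43 in 19n, 10.05 in 30o and 9.65 in 15o in controls of 2 h. The times did not overlap, with a change of 2.30 in controls (limma adjusted p = 1.24e-05) and 2.38 in progesterone tubes (limma adjusted p = 4.06e-06). Its ligand Fasl was detected on 1 array. The median of the tested related genes was 0.06 in controls and -0.05 with no normalisation. Ngfr, the low-affinity neurotrophin receptor, was lower by -0.50 in progesterone tubes (limma adjusted p = 0.011) and had -0.28 in controls, not past the threshold. Cd40 and Ltbr, detected on all arrays, did not pass in either arm.

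Downstream of the receptors, 27 genes of the adaptors and the NF-kB pathway were tested. In controls 12 rose and 0 fell, with a median change of 0.10, and in progesterone tubes 11 rose and 0 fell, with a median of 0.21. Over all probes 6.01% rose and 5.33% fell in controls and 7.19% and 7.79% in progesterone tubes. The largest rises in controls were Nfkb1 at 1.02 and Rela at 0.94, which encode the p50 precursor and p65 of NF-kB, then Tnfaip3 at 0.74, the A20 inhibitor, and Relb at 0.59. Among the adaptors of the TRAF family Traf4 rose by 0.50 in controls and 0.29 in progesterone tubes, and Traf1, Traf2, Traf3, Traf5, Traf6 and Traf7 did not pass in either arm. These counts depend on the scaling: with median scaling 8 rose and 1 fell in controls and 8 rose and 6 fell in progesterone tubes, and with no normalisation 3 rose and 0 fell in controls and 5 rose and 10 fell in progesterone tubes. Of all probes, 3.26% rose and 9.19% fell in controls and 4.46% rose and 24.8% fell in progesterone tubes with median scaling, and with no normalisation 1.70% rose and 9.10% fell in controls and 2.29% rose and 37.2% fell in progesterone tubes.

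Of 17 NF-kB target genes tested, 9 rose and 0 fell in controls, with a median of 0.48, and 8 rose and 0 fell in progesterone tubes, with a median of 0.35. The largest rises in controls were the adhesion molecule Icam1 at 1.68, the chemokine Cxcl10 at 1.64, the cytokine Il6 at 1.47 and the chemokine Cxcl1 at 0.99. With no normalisation 6 rose and 1 fell in controls and 7 rose and 1 fell in progesterone tubes. Of 18 immediate early genes tested, after quantile normalisation 1 rose and 7 fell in controls and 0 rose and 8 fell in progesterone tubes. The counts of this list with no normalisation are not given here. Over all probes 6.01% rose and 5.33% fell in controls, and 7.19% rose and 7.79% fell in progesterone tubes. With no normalisation 1.70% of all probes rose and 9.10% fell in controls, and 2.29% rose and 37.2% fell in progesterone tubes. The largest falls in controls were the transcription factors Klf2 at -1.50, Jun at -1.11, Egr1 at -1.01 and Fos at -0.86. For progesterone against control 0 genes of these 4 lists passed at either time by limma. The study itself listed Cxcl1, a member of the NF-kB target list, as higher with progesterone at 2 h by paired SAM. Here the 2 h difference of Cxcl1 was 0.49 (limma adjusted p = 0.9997). At an unadjusted p under 0.05 there were 2 of 18 immediate early genes (11.1%) at 20 min, against 5.03% of all probes, and 0 in the other 3 lists. At 2 h there were 4 of 17 NF-kB targets (23.5%) and 2 of 27 adaptor and pathway genes (7.41%), against 2.59% of all probes, and 0 in the other 2 lists. Of the NF-kB targets 7 were higher and 10 lower with progesterone at 2 h, with a median of -0.03. The lists were chosen with earlier results of these data known, so these shares do not test them.

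Markers of immune cells were read because many family members are known from leukocytes. Of 6 leukocyte markers tested 0 were called in controls and 1 was lower in progesterone tubes, and the summed level of the 7 on the array ranged from 3612 to 5415 in 20 min controls and from 3263 to 5721 in 2 h controls. Of 9 macrophage markers, Cd14 and Cd68 rose, Cd14 by 0.98 in controls and 1.25 in progesterone tubes, and the other 7 were not called; the medians were -0.11 in each arm. The summed macrophage level was 3442 to 4392 in 20 min controls and 3531 to 5152 in 2 h controls. Of 4 T cell markers tested 0 were called, and of 3 B cell markers Blnk rose in both arms. Of 5 secretory epithelium markers, Krt8 and Krt18 rose in both arms, and of 7 ovary markers tested Inhba, detected on 9 arrays, rose by 0.56 and 0.37. With no normalisation 1 macrophage marker rose and 3 fell in controls and 2 rose and 5 fell in progesterone tubes, Blnk and Inhba were not called in either arm, and the keratins were not called in controls. Over all probes 11.3% were called in controls and 15% in progesterone tubes after quantile normalisation. With no normalisation the shares were 10.8% and 39.5%, with 9.10% and 37.2% called lower. Endothelial, ciliated, fat, blood and skeletal muscle markers had 0 calls in either time contrast. The part of these cell types in the changes of the family was not tested. The smooth muscle covariate was chosen after seeing the data and is no test of it.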

How the data were processed

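RNA of 16 pooled samples of mouse fallopian tube was labelled and hybridised to Illumina MouseRef-8 v2 BeadChips. Signal intensity, as the authors deposited it, was the GenomeStudio average per probe (25697 probes), with neither background subtraction nor normalisation. Each signal came with a deposited detection p-value. A genome build for the probes is not given in the sources used here. Arrays carry no count depth, so the number of arrays limits the precision. Array columns were matched to samples by label, and log2 signals of any pair of arrays correlated at 0.968 to 0.996.

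Signals were quantile-normalised over 16 arrays and taken to log2 with limma 3.58.1 in R 4.3.3. Probes with a detection p under 0.5 on at least 13 arrays were tested with lmFit and eBayes and adjusted by Benjamini-Hochberg over all 16848. Progesterone was compared with control with the pair as a block, at an adjusted p of at most 0.20. Times were compared between unpaired arrays at 0.05. Scripts were tested on simulated data with 200 changed probes. Figures used Python and matplotlib 3.10.9. In gene lists the brightest kept probe stood for a gene. The smooth muscle score is the mean over its markers of log2 signal less each marker's mean.

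Pairs come from codes shared by the labels and from the study's paired test. Deviations from group means correlated at 0.35 to 0.55 between samples of the same code at 20 min and at 0.00049 to 0.65 at 2 h. Between samples of different codes they correlated at -0.46 to 0.23 at 20 min and at -0.60 to 0.34 at 2 h, so the ranges overlap at 2 h. The sources describe both a tube of each mouse in each arm and 6 tubes of 3 animals in a pool. What a replicate holds is therefore not settled. The p-values of the time contrasts measure the spread between pools, and those of the paired progesterone fits the spread of differences between pairs of pools. The members, the lists and the rule for named genes (Tnfrsf12a in each comparison, every called family probe in the time comparisons, the 2 smallest p where no progesterone call was made, and up to 4 called genes of a list) were chosen with earlier results of these data known. Alternatives were background correction, no normalisation, median scaling, other filters, no replicate block, paired SAM, pairs as a random block, a smooth muscle covariate and leaving out each replicate. Promoter windows came from RefSeq on GRCm38.p6, and probe sequences and proteins were not used here.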

Additional observations from a re-analysis of the deposited data

Results flagged for a closer look

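In groups of 4 arrays, the highest or lowest value of a family probe was singled out where its gap to the nearest array was above Dixon's 95% critical value as a share of the group's range. This happened in 11 of 108 groups, and chance gives about 5.4. Tnfrsf12a was high in the progesterone tube of 26n at 20 min, at 8.10 against 7.66 to 7.70 in the other pairs. The array pair 6d at 2 h was high for Tnfrsf1a ILMN_2469329 in the control (8.58, others up to 8.20), and in the progesterone tube for Tnfrsf10b ILMN_2945095 (8.88, others up to 8.32) and Tnfrsf22 ILMN_2454204 (8.05, others up to 7.76). Tnfrsf1a ILMN_1241228 was low in the 20 min control of 12n, at 7.46. Tnfrsf21 was high in the 20 min progesterone tube of 27n, at 8.02, against 7.56 to 7.57 in the other pairs. Tnfrsf10b ILMN_2455181 stood apart in the 20 min control of 27n, at 7.20, against 7.21 to 7.22 in the other pairs, and in the 20 min progesterone tube of 12n, at 7.37. Tnfrsf22 ILMN_2892413 stood apart in the 2 h control of 30o, at 7.26, and in the 2 h progesterone tube of 19n, at 7.19. Tnfrsf9 was low in the 2 h control of 15o, at 6.73. The causes were not tested.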

How the results depend on the processing

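Of 311 alternative values for 21 single probe results, 280 kept direction and side of the threshold, 30 lost the call and 1 reversed. The rise of Tnfrsf12a stayed between 3.71 and 4.57 in controls and between 3.88 and 4.98 in progesterone tubes, and passed in every alternative run, as did the fall of Tnfrsf19. The reversal was the Tnfrsf12a difference at 2 h, which ranged from -0.19 (without 15o) to 0.21 when a pair was left out. In controls the number of family probes called (7) ranged from 2 to 9 over the alternatives, with 2 under no normalisation and 4 to 6 when an array was left out. It was 4 without 26n, 12n or 22ob at 20 min or without 19n at 2 h. In progesterone tubes it was 5 to 9. With no replicate block, 0 family probes were called for progesterone at either time or for the difference, as with the paired fit. Calls of Tnfrsf1a in controls were lost in 8 of 16 alternatives for ILMN_1241228, 5 for ILMN_2469333 and 1 for ILMN_2469329. ILMN_2454204 of Tnfrsf22 has no definition and was not tested where such probes were left out. Over all probes, the progesterone calls at 2 h (1) ranged from 0 to 17 (17 by paired SAM, 12 without 15o), those at 20 min (0) from 0 to 1 (paired SAM), and those for the difference from 0 to 31 (without 15o). The time calls were 1911 in controls, 1164 without 19n and 1268 without 30o at 2 h, and 2524 in progesterone tubes, 6654 with no normalisation and 4931 with median scaling. The causes of these differences were not tested. For probes near background, such as those of Tnfsf12 and Tnf, a fall could not have been read at this signal.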
